A study of Homo sapiens with 3 samples.

Results

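The comparison described here is between repopulated cells (R), which grew back by day 30 after 8 Gy of radiation, and non-irradiated cells (NC) of the same line. Both are HCT116 cells, an established human colorectal carcinoma line, and the labels give the genotype as p53plus, which R and NC share with every other cell of the library. They were captured together with irradiated cells (IR) in one droplet library, Mix2, for which the labels give an estimated input of 12000 cells, of which 10000 were IR, 1000 NC and 1000 R. Antibody hashtags marked the origin of each cell, tag6 for NC, tag7 for R and tag8 for IR, whose giant cells were isolated on day 5 or 8 and cultured until day 10 or 11. A cell was taken as R when tag7 had at least 104 counts and made up at least 80% of its counts of the 3 tags, and as NC when tag6 had at least 374 counts and the same share, among cells with at least 200 genes and under 10% of their UMIs from mitochondrially encoded genes. These limits gave 633 R cells and 810 NC cells, out of 11652 cells kept in Mix2 and 27282 in both libraries of the series. No R cell was lost to the count limit alone and 7 NC cells were, with 1 to 370 counts of tag6. Just inside the share limit, 81 R and 50 NC cells had a share of 80 to 85%, and just outside it 26 and 17 cells had 75 to 80%.

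R and NC were of like depth, and each was a single sample. The R cells held 4731705 UMIs and the NC cells 6104377, with medians of 6933 and 7160.5 UMIs and 2362 and 2423 genes per cell. The median mitochondrially encoded share was 7.16% in R and 6.003% in NC. Both carried a median of 121 counts of tag8 beside medians of 1345 counts of tag7 (R) and 1626 counts of tag6 (NC). Cells of 1 culture are not replicates of a treatment, so no p-value was computed. Ratios are given with an exact 95% interval of the 2 UMI counts, in parentheses. It covers counting error only and not the spread between cells or between cultures. Where a share of cells has an interval, it is an exact binomial 95% interval over the cells of that population. That interval takes cells as independent and does not cover the spread between cultures. Levels are UMIs per 1000000 summed UMIs of a population (CPM). The epithelial markers were there in both: EPCAM at 400.1 CPM in R and 373 CPM in NC, KRT8 at 1182 CPM in R and 1068 CPM in NC and KRT18 at 1363 CPM in R and 1284 CPM in NC, with CDH1 low at 13.5 CPM in R and 15.4 CPM in NC. The 8 fibroblast markers summed to 5.92 CPM in R and 4.42 in NC, the 8 immune markers to 5.92 and 4.75, the 4 erythroid markers to 1.90 and 2.78, and the 4 endothelial markers were at 0 UMIs in both. PTPRC, the pan-leukocyte marker, was also at 0 UMIs in both.

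The genes followed here belong to 4 well-known systems. ID proteins bind basic helix-loop-helix transcription factors and keep them from DNA, and their genes are direct targets of bone morphogenetic protein (BMP) signals carried by SMAD proteins. RNF43 is a membrane ubiquitin ligase that removes Frizzled receptors and so restrains Wnt signals, the pathway that maintains intestinal crypt stem cells. Metallothioneins are small cysteine-rich proteins that hold zinc and copper, and the factor MTF1 drives their genes through metal response elements. ASNS makes asparagine, and its gene is a target of ATF4, the transcription factor of the integrated stress and amino acid response, which also drives serine synthesis, amino acid transport and tRNA charging genes.

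The start-site regions of MT2A, MT1X and ASNS are shown because they hold the letters of the elements through which MTF1 and ATF4 are known to act. They are the 250 bases before the RefSeq start of each gene (GRCh38.p14), read on the gene's strand, with matches in capitals. For the metallothioneins the capitals mark the metal response element, searched as TGCACNC and TGCGCNC on both strands, and for ASNS the amino acid response element, searched as TGATGNAA on both strands.
MT2A, chr16:56608334-56608583, plus strand: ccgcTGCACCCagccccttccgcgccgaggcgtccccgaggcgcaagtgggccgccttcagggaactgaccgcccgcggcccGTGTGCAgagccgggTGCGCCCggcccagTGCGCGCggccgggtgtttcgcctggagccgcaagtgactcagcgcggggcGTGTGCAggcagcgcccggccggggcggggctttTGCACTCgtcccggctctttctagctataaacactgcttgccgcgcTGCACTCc
MT1X, chr16:56682220-56682469, plus strand: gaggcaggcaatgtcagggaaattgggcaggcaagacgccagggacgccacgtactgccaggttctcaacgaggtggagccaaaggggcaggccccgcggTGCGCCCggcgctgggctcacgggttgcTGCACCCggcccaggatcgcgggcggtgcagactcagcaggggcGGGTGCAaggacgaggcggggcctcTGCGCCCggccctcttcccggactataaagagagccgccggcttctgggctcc
ASNS, chr7:97872409-97872658, minus strand: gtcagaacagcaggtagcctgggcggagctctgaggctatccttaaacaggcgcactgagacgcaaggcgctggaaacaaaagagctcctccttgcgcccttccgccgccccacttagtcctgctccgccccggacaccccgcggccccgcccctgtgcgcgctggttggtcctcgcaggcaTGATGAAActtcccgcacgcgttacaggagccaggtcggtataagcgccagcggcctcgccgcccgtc
The metal response letters occurred 7 times before the MT2A start, from 8 to 246 bases upstream, and 4 times before that of MT1X. Some match of these letters stood in 24.8% of the 35116 RefSeq windows of this length, or in some window of 28.5% of the 27305 genes, and in 5 of the 11 measured metallothionein and zinc transport genes found in the table. The amino acid response letters, in 3.14% of all windows and 3.89% of genes, stood once before the ASNS start shown, 68 bases upstream, and not in the window of another ASNS start of the table. They stood in 4 of 21 measured ATF4 response genes found there (ASNS, ATF3, CEBPG and SLC1A5). A sterol element (TCACNCCAC, 0.883% of windows and 1.09% of genes) stood in 1 of 14 measured cholesterol synthesis genes, SREBF2. A match describes these letters and does not show a bound site.

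Most of the transcriptome was close to equal between the repopulated and the non-irradiated cells. Of the 7533 genes at 10 CPM or more in either population, 107 were at least 1.5-fold higher in R with an interval that left out equality (1.42% of the genes tested) and 133 were as far lower (1.77%), 240 in all (3.19%). The median log2 ratio was −0.04, and the 5th and 95th percentiles of the ratio were 0.744 and 1.29. Without a limit on the fold, the interval left out equality for 594 higher (7.89%) and 947 lower genes (12.6%). The count error at the 10 CPM limit is wide: for equal levels there, 47 UMIs in R against 61 in NC, the interval runs from 0.665 to 1.48, so calls near that limit are the least certain. Among the 2766 genes at 50 CPM or more, 12 were higher (0.434%) and 15 lower (0.542%). Past 2-fold there were 15 higher (0.199%) and 10 lower genes (0.133%). With a stricter interval, with an error of 1 in 1000, 47 were higher and 36 lower. The split between higher and lower genes moved with the total: with mitochondrially encoded, ribosomal protein and metallothionein genes left out of it, 193 were higher and 147 lower, so that 56.8% of the calls were higher against 44.6% with the full total.

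**Figure D1:**
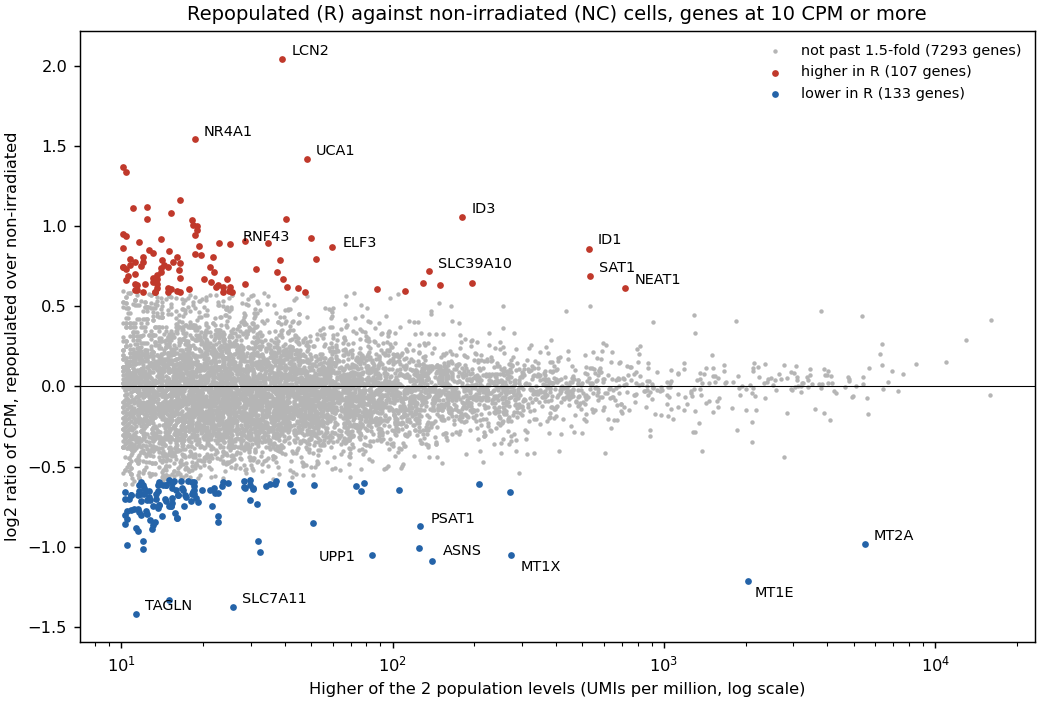
Each point is 1 of the 7533 genes, with the higher of its levels in R and NC on the x axis (CPM, log scale) and the log2 ratio of R over NC on the y axis; red and blue points are past 1.5-fold with an interval that leaves out equality. The scatter narrows as the level rises, and MT2A, MT1E and MT1X below and ID1, ID3, SAT1 and NEAT1 above stand clear of it at high levels.

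The 12 highest ratios among genes at 50 CPM or more were those of ID3, ELF3, ID1, IDI1, SLC39A10, SAT1, SELENOM, S100A14, CRIP1, NEAT1, CLDN4 and SCD, from 2.08 down to 1.51. The list joins ID genes, epithelial genes (ELF3, an epithelial ETS factor, and CLDN4, a tight junction protein), lipid synthesis (IDI1 and SCD) and a zinc importer (SLC39A10). SAT1, which acetylates spermidine and spermine for their breakdown, was at 534 CPM in R and 331 CPM in NC, a ratio of 1.61 (1.52 to 1.71). NEAT1, the long noncoding RNA that builds paraspeckles, was at 720.5 CPM in R and 470.0 CPM in NC, a ratio of 1.53 (1.46 to 1.61). Of its 2869 NC UMIs 203 were in 1 cell, and without the highest cell of each population its ratio was 1.63 (1.55 to 1.72). Cell-free RNA, from droplets with at most 100 UMIs, held SAT1 at 665.5 CPM and NEAT1 at 1055 CPM, each above both populations. The same held for ELF3, at 71.4 CPM in cell-free RNA, and IDI1, at 60.1 CPM. The 12 lowest were MT1E, ASNS, UPP1, MT1X, NR2F1, MT2A, PSAT1, STC2, SARS, GCLM, YARS and CENPV, from 0.432 up to 0.649. Of these, MT1E, MT1X and MT2A are metallothioneins, ASNS, PSAT1 and STC2 are in the ATF4 list, and SARS and YARS charge tRNAs. UPP1, a uridine phosphorylase of nucleotide salvage, was at 40.6 CPM in R and 84.2 CPM in NC, a ratio of 0.482 (0.406 to 0.570), but 1 NC cell held 101 of its 514 NC UMIs, and without the highest cell of each population its ratio was 0.581 (0.486 to 0.693). The orphan nuclear receptor gene NR2F1 was at 62.6 CPM in R and 125 CPM in NC, a ratio of 0.499 (0.434 to 0.571).

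ID1 and ID3 were higher in the repopulated cells, while no measured BMP ligand or SMAD gene upstream of them passed the call. ID3 was at 180.5 CPM in R and 86.8 CPM in NC, a ratio of 2.08 (1.86 to 2.32). ID1 was at 528 CPM in R and 292 CPM in NC, a ratio of 1.81 (1.70 to 1.92). ID2 had 66.6 CPM in R and 46.7 CPM in NC, a ratio of 1.43 (1.21 to 1.68) that stayed under 1.5-fold. Thus all 3 measured ID genes had a ratio above 1, and 2 of them passed the call. Of the 37 genes of the BMP and ID list, 11 were measured, with 2 higher and none lower, against 1.42% and 1.77% of all genes tested. Their median log2 ratio was 0.13 beside −0.04 over all genes tested. The only measured ligand, BMP4, had a ratio of 0.901 (0.760 to 1.07), and no antagonist and no receptor of the list reached 10 CPM. Among the signal carriers SMAD1 had 1.29 (0.934 to 1.78), SMAD5 1.098 (0.943 to 1.28), SMAD2 1.04 (0.846 to 1.27), SMAD3 0.794 (0.626 to 1.01) and SMAD4 0.841 (0.620 to 1.14). Of the other targets, the ubiquitin ligase gene SMURF2 had 1.26 (1.11 to 1.43) and the homeobox gene MSX1 1.08 (0.971 to 1.20).

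The difference in ID3 was spread over many cells rather than carried by a few. After each cell was thinned to 4000 UMIs, which left 581 R and 771 NC cells, 48.4% of R cells (44.2 to 52.5%) and 28.02% of NC cells (24.9 to 31.3%) had at least 1 UMI of ID3, against 63.0% and 44.6% unthinned. The highest cell held 6 UMIs in R and 4 in NC. For ID1 the shares were 82.3% in R and 63.6% in NC, and the medians 2 and 1 UMIs. Cell-free RNA, measured in droplets with at most 100 UMIs, held ID3 at 135 CPM and ID1 at 357 CPM, between the levels of NC and R. No cell type that lacks these genes was in the library to set a background share.

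RNF43 was the only member of the Wnt list past 1.5-fold. It was at 49.9 CPM in R and 26.2 CPM in NC, a ratio of 1.90 (1.55 to 2.34). This put a UMI in 16.4% of thinned R cells (13.4 to 19.6%) and in 9.34% of NC cells (7.38 to 11.6%), or 27.6% and 16.4% unthinned, and cell-free RNA held 19.7 CPM. With the tag share limit at 95%, which kept 44 R and 88 NC cells, the ratio was 1.22 and not past the fold. It was also short of the fold in the 34 R and 20 NC cells without a UMI of 4 mitotic genes, at 1.35. Of 39 listed Wnt genes 16 were measured, with 1 higher and none lower, against 1.42% and 1.77% of all genes tested. Their median log2 ratio was 0.02. DKK1, a secreted inhibitor, had 0.956 (0.869 to 1.05). The coreceptor LRP6 had 1.18 (0.866 to 1.60) and CTNNB1, the gene of beta-catenin, 1.09 (0.930 to 1.27). Ratios of the targets ran from 0.948 for MYC to 1.12 for CD44, with SOX9 at 1.08 and CCND1 at 1.02. AXIN2, LGR5 and ZNRF3, common readouts of Wnt feedback and stemness, did not reach 10 CPM.

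MT2A and MT1E were the most abundant of the genes past the call, and both were lower in the repopulated cells. MT2A was at 2792 CPM in R and 5509 CPM in NC, a ratio of 0.507 (0.497 to 0.517). MT1E was at 879.8 CPM in R and 2038 CPM in NC, a ratio of 0.432 (0.417 to 0.447). MT1X was at 132 CPM in R and 274 CPM in NC, a ratio of 0.484 (0.440 to 0.530). The 3 ratios ran from 0.432 to 0.507, and the intervals of MT1E and MT2A did not overlap. MT1F was at 10.99 CPM in R and 9.67 CPM in NC, a ratio of 1.14 (0.768 to 1.68). The other 7 listed metallothioneins were under 10 CPM. Summed over the list the metallothionein ratio was 0.487. These genes are near-identical copies, and reads that fit several of them may be lost or split, so their single levels are less certain than their sum. Their activator MTF1 had a ratio of 0.922 (0.668 to 1.27). The zinc importer SLC39A10 went the other way, at 136 CPM in R and 82.7 CPM in NC, a ratio of 1.65 (1.46 to 1.85). SLC39A7, which releases zinc from the endoplasmic reticulum, had 1.27 (1.09 to 1.48), and the remaining importers lay between 0.952 and 1.095. Of the exporters, SLC30A6, SLC30A7 and SLC30A9 had 0.686, 0.803 and 0.802 and SLC30A5 1.04, none past the call. Over the 15 measured genes of metallothioneins and zinc transport, 1 was higher and 3 were lower, against 1.42% and 1.77% of all genes tested. The median log2 ratio was −0.07, since the transporters lie near 0.

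Per cell, MT2A was lower in most R cells and not only in a few. Thinned R cells held a median of 10 UMIs (10th to 90th percentile, 4 to 19) and NC cells a median of 20 (10 to 38). The NC median or less was seen in 92.8% of R cells, and 48.7% of R cells were below the NC 10th percentile. For MT1E the medians were 3 and 8 UMIs. For MT1X 38.04% of R cells and 60.4% of NC cells had a UMI. MT2A and MT1E varied together within NC, with a Spearman's rho of 0.545 over 771 cells, and less so within R, at 0.292 over 581 cells, where both counts are lower. Cell-free RNA held MT2A at 3371 CPM, above the R level.

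By its median, the ATF4 response was the gene list farthest from equality. Of its 37 genes 26 were measured, none was higher and 8 were lower, against 1.77% lower over all genes tested. A ratio below 1 was seen for 22, with a median log2 ratio of −0.42 beside −0.04 over all genes tested. ASNS was at 65.5 CPM in R and 139 CPM in NC, a ratio of 0.471 (0.412 to 0.537). In the 44 R and 88 NC cells left by the 95% tag share the ratio was 0.302. Serine synthesis followed: PSAT1 was at 68.7 CPM in R and 126 CPM in NC, a ratio of 0.547 (0.479 to 0.623), and PHGDH, the first enzyme of that route, had a ratio of 0.658 (0.562 to 0.770). All 9 measured amino acid enzymes had a ratio below 1, from 0.471 to 0.814 for PYCR1 of proline synthesis. Among transporters SLC7A11, the cystine importer, was at 9.93 CPM in R and 25.7 CPM in NC, a ratio of 0.386 (0.273 to 0.538), and SLC7A1, which carries arginine and lysine, at 19.0 CPM in R and 31.6 CPM in NC, a ratio of 0.602 (0.463 to 0.777). The glutamine carrier SLC38A2 had 1.05 (0.954 to 1.14), the only measured transporter with a ratio above 1. TRIB3, a pseudokinase that feeds back on the pathway, was at 15.9 CPM in R and 32.4 CPM in NC, a ratio of 0.489 (0.370 to 0.641). STC2, a secreted stanniocalcin, was at 28.1 CPM in R and 50.6 CPM in NC, a ratio of 0.555 (0.450 to 0.683), and its ratio was 0.739 at 4000 UMIs per cell. Among the factors ATF5 was lower, with a ratio of 0.645 (0.497 to 0.832), while ATF4 itself had 0.821 (0.744 to 0.906) and DDIT3 (CHOP) 0.728 (0.554 to 0.951), neither past the fold. ATF3 and DDIT4, which other stresses also induce, had 1.29 (0.924 to 1.801) and 1.29 (1.12 to 1.48). PCK2, the mitochondrial phosphoenolpyruvate carboxykinase, was at 5.92 CPM in R and 14.9 CPM in NC, a ratio of 0.397 (0.2501 to 0.612).

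The aminoacyl-tRNA synthetases, which charge tRNAs, had ratios mostly below 1. All 20 listed genes were measured, 17 had a ratio below 1 and 3 were past 1.5-fold: SARS at 171 CPM in R and 270.5 CPM in NC, a ratio of 0.634 (0.582 to 0.690), YARS at 67.4 CPM in R and 106 CPM in NC, a ratio of 0.638 (0.556 to 0.731) and GARS at 136 CPM in R and 208 CPM in NC, a ratio of 0.655 (0.595 to 0.721). CARS, MARS and WARS had 0.696, 0.704 and 0.706. Over all genes tested 1.77% were lower, and the list had a median log2 ratio of −0.33. YARS was 0.678 at 4000 UMIs per cell and GARS 0.686 with equal weight for each cell, both short of 1.5-fold. Counted per cell, the summed ATF4 list had a median of 7 UMIs in R (10th to 90th percentile, 3 to 11) and 9 in NC (5 to 14). ASNS had a UMI in 20.3% of R cells (17.1 to 23.8%) and 41.6% of NC cells (38.1 to 45.2%), and PSAT1 in 22.5% and 37.4%. Cell-free RNA held ASNS at 54.5 CPM. The antioxidant genes of the NRF2 list, some of which make glutathione from the cystine that SLC7A11 imports, included 3 that were lower: GCLM had 0.637 (0.542 to 0.747), GCLC 0.665 (0.527 to 0.835) and SLC7A11 the value above, since it is in both lists. NQO1 and TXNRD1 had 0.750 and 0.750, and over the 12 measured antioxidant genes none was higher, with a median log2 ratio of −0.37. Lower calls made up 1.77% of all genes tested. With the 3 measured iron genes of the list the median was −0.24. GCLC fell short of 1.5-fold in 7 of the 10 alternatives that keep most cells.

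**Figure D2:**
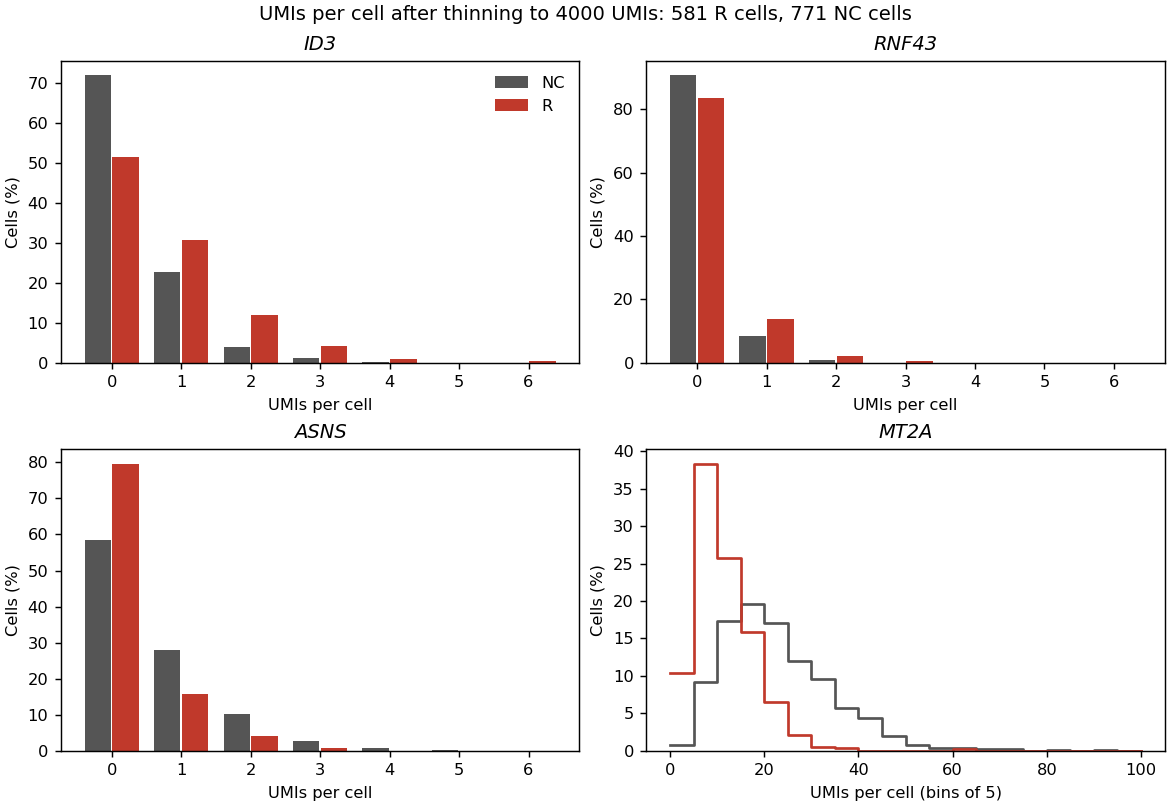
The share of cells (y axis, %) at each number of UMIs per cell (x axis) for ID3, RNF43, ASNS and MT2A, after thinning to 4000 UMIs, in 581 R cells (red) and 771 NC cells (grey). The ID3 and RNF43 bars at 0 are shorter in R, that of ASNS is taller, and the MT2A curve lies to the left in R, with medians of 10 and 20 UMIs.

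Of 20 measured cholesterol synthesis genes, 4 were higher in the repopulated cells and none was lower, against 1.42% and 1.77% of all genes tested. A ratio above 1 was seen for 17, and the median log2 ratio was 0.25. IDI1, which isomerises isopentenyl diphosphate, was at 52.0 CPM in R and 29.98 CPM in NC, a ratio of 1.73 (1.43 to 2.11). HMGCS1, which makes HMG-CoA, was at 21.3 CPM in R and 13.6 CPM in NC, a ratio of 1.57 (1.16 to 2.12), and TM7SF2, a sterol reductase, at 25.1 CPM in R and 13.6 CPM in NC, a ratio of 1.85 (1.39 to 2.48). INSIG1, the sterol sensor partner that holds SREBP back, was at 18.6 CPM in R and 9.67 CPM in NC, a ratio of 1.92 (1.37 to 2.72). SREBF2, which encodes the driving factor, had 0.890 (0.629 to 1.2505). In fatty acid synthesis SCD, which desaturates stearoyl-CoA, was at 111 CPM in R and 73.2 CPM in NC, a ratio of 1.51 (1.33 to 1.72) and was the only one of 9 measured genes past the fold. HMGCS1 was 1.43 at 4000 UMIs per cell and SCD 1.43 in the 538 R and 674 NC cells with fewer than 200 tag8 counts. The list median was 0.0091 with the 95% tag share.

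**Figure D3:**
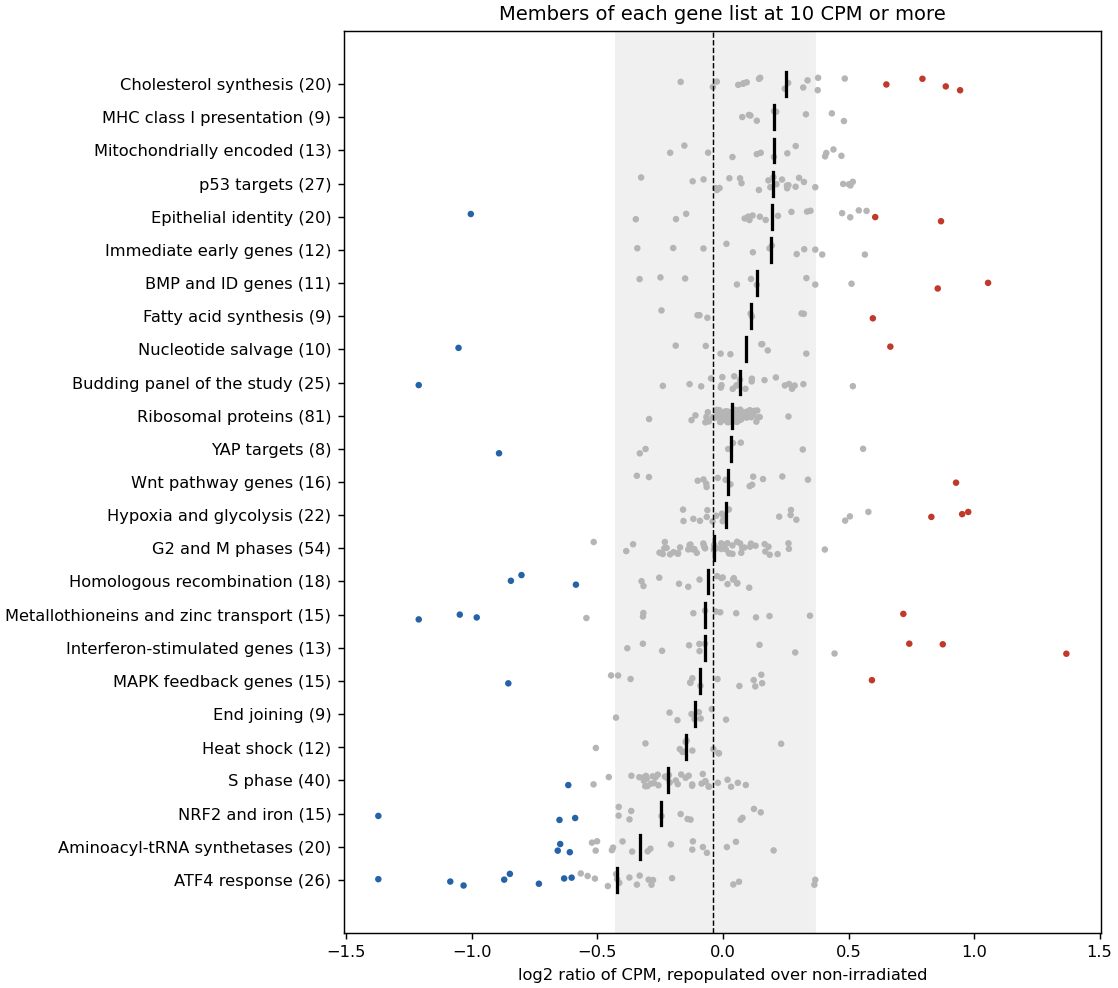
Log2 ratio of R over NC (x axis) of the members at 10 CPM or more of each gene list with at least 8 such members (their number in parentheses); black ticks are list medians, the dashed line is the median of all genes tested (−0.04) and the grey band its 5th to 95th percentile. Red and blue points are past the call, and the ATF4 response, at −0.42, and cholesterol synthesis, at 0.25, mark the ends of the order.

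Mitotic genes were near equal, and replication genes had ratios mostly below 1. Calls in these lists stand against 1.42% higher and 1.77% lower over all genes tested. The 54 genes of the G2 and M phases had a median log2 ratio of −0.04 and none passed the call. MKI67, the proliferation antigen, had 0.949 (0.887 to 1.01) and TOP2A 0.995 (0.935 to 1.06), while CCNB1 of mitotic entry had 1.20 (1.12 to 1.29). Of the 40 S phase genes, 36 had a ratio below 1, with a median of −0.22, and only ORC1, of the origin recognition complex, was past the fold, at 9.30 CPM in R and 14.3 CPM in NC, a ratio of 0.652 (0.443 to 0.948). The replicative helicase genes MCM6, MCM5 and MCM3 had 0.700, 0.794 and 0.804. Per cell the S phase list summed to a median of 13 UMIs in R and 14 in NC, and the G2 and M list to 28 and 29. Homologous recombination, the templated repair of broken DNA, had 18 measured genes with a median of −0.06. Against 1.77% lower over all genes tested, 3 of them were past the fold, all lower. These were XRCC2 at 12.7 CPM in R and 22.8 CPM in NC, a ratio of 0.557 (0.404 to 0.759), PALB2 at 6.76 CPM in R and 11.8 CPM in NC, a ratio of 0.573 (0.366 to 0.881) and BRCA2 at 19.9 CPM in R and 29.8 CPM in NC, a ratio of 0.666 (0.514 to 0.859). The stem cell marker gene PROM1 was under 10 CPM. BRCA1 had 0.799 (0.682 to 0.934). At 4000 UMIs per cell PALB2 was 0.617 and BRCA2 0.796, and neither passed. None of the 9 measured end joining genes passed, with PRKDC at 0.917 and XRCC5 at 0.936.

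The p53 targets, in cells whose label is p53plus, had ratios mostly above 1. None of 27 measured targets passed the call, and 20 had a ratio above 1. Their median log2 ratio was 0.20 beside −0.04 over all genes tested. CDKN1A, the p21 inhibitor of cyclin-dependent kinases, was at 255 CPM in R and 180.2 CPM in NC, a ratio of 1.42 (1.30 to 1.54). Cell-free RNA held it at 402 CPM. CCNG1 had 1.39 (1.13 to 1.72), TP53I3 1.42 (1.14 to 1.78) and MDM2, the ubiquitin ligase that degrades p53, 1.22 (1.0004 to 1.49). GDF15, a stress cytokine, had 1.05 (0.984 to 1.13). The death receptor genes TNFRSF10A and FAS had 0.798 and 1.05, and BAX 1.149.

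Among genes at 50 CPM or more in both populations, CDKN1A had the spread across cells that differed most. The Fano factor, the variance of the thinned counts over their mean, which is 1 for counting noise alone, was 4.61 in R and 1.43 in NC. At least 5 UMIs were found in 15 of 581 R cells (2.58%, exact binomial 95% interval 1.45 to 4.22%) and in 2 of 771 NC cells (0.259%, 0.0314 to 0.934%), and the highest cells held 33 and 11. These 15 R cells carried 26.9% of the CDKN1A UMIs of R. In them GDF15 had a mean of 8.33 UMIs against 1.09 in the other R cells, and MKI67 0.667 against 1.21. The 2 NC cells went the same way, with GDF15 at 11.5 against 1.21 in the other NC cells and MKI67 at 0.5 against 1.31. Tag8 counts of the 15 R cells had a median of 117 and a highest value of 600, against the median of 121 over all R cells. R cells were chosen by their share of tag7, which limits tag8 relative to tag7 in all of them. These counts therefore cannot show whether any of the 15 droplets also held an irradiated cell, and this was not tested. Without the cells of 5 or more UMIs the mean CDKN1A was 0.686 UMIs in R and 0.635 in NC, and the Fano factor 1.13 and 1.22. The cut was set after the counts were seen, and since it removes cells by their CDKN1A count, a fall of the mean and of the Fano factor follows from it.

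Over all genes the cells of R and NC were similarly dispersed. The median ratio of Fano factors (R over NC) was 1.01 over 2546 genes, with a 5th to 95th percentile range of 0.875 to 1.17, and 6 genes were above 1.5 and 5 under 1 in 1.5. The 6 highest were CDKN1A, IER3, NUSAP1, HES1, SSB and LDHA, and the 6 lowest MT2A, ATP5F1E, MALAT1, NEAT1, MT1E and TXNL4A. Several of these rested on 1 cell, since 1 R cell held 20 UMIs of SSB and 1 NC cell 59 of ATP5F1E. With the highest cell of each population left out gene by gene, 2 genes were above 1.5, CDKN1A and SAT1, and 2 under 1 in 1.5, MT1E and MT2A. SAT1 was not above it with all cells, where its Fano factors were 2.88 and 2.68. Without the highest cells CDKN1A had Fano factors of 2.84 and 1.24, and SAT1 of 2.65 and 1.53. MT2A had 3.57 in R and 6.30 in NC with all cells, but its excess squared coefficient of variation, the Fano factor less 1 divided by the mean, was 0.230 and 0.235. Relative to its mean, MT2A therefore varied alike in both populations, and for MT1E the values were 0.171 and 0.190. For ID3 they were 0.329 and 0.367, for ID1 0.223 and 0.320, and for ASNS 0.840 and 0.313. At 4000 UMIs per cell, R cells showed a median of 1655 genes and NC cells 1677.

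The largest fold differences fell on genes of low level. LCN2, a lipocalin that binds iron-carrying siderophores, was at 39.1 CPM in R and 9.501 CPM in NC, a ratio of 4.11 (3.05 to 5.63), with 103 CPM in cell-free RNA. A UMI of it was found in 13.4% of thinned R cells (10.8 to 16.5%) and 3.63% of NC cells (2.43 to 5.21%). Its ratio was 7.83 after 5% of each population's UMIs were taken off as cell-free RNA, and 1.16 in cells without a UMI of 4 mitotic genes. NR4A1, an orphan nuclear receptor of the immediate early class, was at 18.6 CPM in R and 6.39 CPM in NC, a ratio of 2.91 (1.98 to 4.36), and with the 95% tag share its ratio was 0.709. UCA1, a long noncoding RNA known from epithelial tumours, was at 48.2 CPM in R and 18.02 CPM in NC, a ratio of 2.67 (2.12 to 3.39). BST2 (tetherin), HSH2D and KIAA0040 completed the 6 highest ratios of genes at 10 to 50 CPM, at 2.58, 2.53 and 2.24. Cell-free RNA held 29.5 CPM of NR4A1, 63.0 CPM of BST2 and 23.2 CPM of HSH2D, each above its R level. The 6 lowest were TAGLN, SLC7A11, PCK2, TRIB3, COL12A1 and SLC16A14. TAGLN, an actin-binding protein, was at 4.23 CPM in R and 11.3 CPM in NC, a ratio of 0.374 (0.215 to 0.623), and COL12A1, a collagen, at 5.92 CPM in R and 11.96 CPM in NC, a ratio of 0.495 (0.308 to 0.775).

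Some epithelial and interferon-stimulated genes were past the call. The counts below stand against 1.42% higher and 1.77% lower over all genes tested. Among 20 measured epithelial identity genes CLDN4, at 87.3 CPM in R and 57.3 CPM in NC, a ratio of 1.52 (1.32 to 1.76), and ELF3, at 59.8 CPM in R and 32.8 CPM in NC, a ratio of 1.83 (1.52 to 2.20), were higher and NR2F1 lower, 16 had a ratio above 1 and the median log2 ratio was 0.19. CLDN4 was 1.49 with equal weight for each cell. S100A14, a calcium-binding protein, had 1.56 (1.42 to 1.72) and SELENOM, a selenoprotein of the study's maintenance panel, 1.56 (1.39 to 1.76), the only one of the 4 measured members, of 5 listed here, past the fold. Of the 27 genes listed here from the study's budding panel 25 were measured and 1 passed, MT1E, and the median was 0.07. SNCG had 1.21 (1.06 to 1.38) and CST3 1.07 (0.991 to 1.155). Both lists hold only a part of the study's panels, which it chose from differences between budding, pre-budding and unirradiated cells. Of 13 measured interferon-stimulated genes, 3 were higher, against 1.42% of all genes tested. These were BST2 at 2.58, UBE2L6 at 1.83 and IFI35 at 1.67. Cell-free RNA held BST2 at 63.0 CPM, UBE2L6 at 35.9 CPM and IFI35 at 23.2 CPM, each above its level in either population. ISG15 had 1.22 (1.14 to 1.30) and IFI6 1.36 (1.06 to 1.75), and the median was −0.07. All 9 MHC class I genes had a ratio above 1, none passed, and the median was 0.20, with HLA-E at 1.40 (1.17 to 1.66) and B2M at 1.16 (1.098 to 1.22). B2M and HLA-E were at 3018 and 272 CPM in cell-free RNA, several times their level in either population, and its part in these ratios was not tested.

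Of the remaining lists, set against 1.42% higher and 1.77% lower over all genes tested, hypoxia and glycolysis split by role. The glycolytic aldolase gene ALDOC and the hypoxia-responsive genes ANKRD37 and NDRG1 were higher, at 1.97 (1.40 to 2.78), 1.94 (1.21 to 3.13) and 1.78 (1.19 to 2.67), and ANKRD37 lost its call in 5 of the 10 alternatives that keep most cells, with ratios of 1.86 to 2.11 there. All 7 measured genes listed under hypoxia had a ratio above 1, with a median of 0.51. Cell-free RNA held NDRG1 at 31.3 CPM and ANKRD37 at 16.2 CPM, each above its level in either population. The 15 listed under glycolysis had a median of −0.03. Immediate early genes had no call among 12, with a median of 0.19, JUN at 1.48 (1.18 to 1.86) and FOS at 1.32 (1.146 to 1.51). Cell-free RNA held JUN at 272 CPM and FOS at 477 CPM, each above its level in either population. MAPK feedback genes had 1 higher (DUSP1) and 1 lower (SPRED2) of 15, and DUSP1, at 1.51 (1.07 to 2.13), fell under 1.5-fold in 5 of the 9 alternatives of that kind that gave a value, with 259 CPM in cell-free RNA. Heat shock genes had no call among 12 and a median of −0.15, with the chaperone gene HSPA8 at 0.807. YAP targets had 1 lower of 8, F3 (tissue factor) at 0.539 (0.348 to 0.819). In nucleotide salvage CDA, cytidine deaminase, was at 39.5 CPM in R and 24.9 CPM in NC, a ratio of 1.59 (1.27 to 1.98). The 81 ribosomal protein genes had a median of 0.04 with no call. The 13 mitochondrially encoded genes had a median of 0.20, from 0.864 for MT-ND2 to 1.39 for MT-ATP6, and since the share of these genes was also used to keep cells, this is a description.

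Set beside the irradiated cells of the same library, the differences fell into separate kinds. Irradiated cells were split by tag8 into a strongly tagged group (3000 counts or more, 2316 cells) and a weakly tagged group (300 to under 3000, 6727 cells), and every comparison with NC uses the same NC cells, so the values are given side by side. Against NC the strongly tagged group had 737 genes higher (9.54%) and 1134 lower (14.7%), and the weakly tagged group 53 higher (0.709%) and 37 lower (0.495%). For the ATF4 genes NC stood apart from the rest. ASNS was at 139 CPM in NC, 65.5 in R, 72.6 in weakly and 43.5 in strongly tagged cells, and PSAT1 at 126, 68.7, 74.8 and 50.4. The same held for ID3 and ID1, with ID3 at 86.8, 180.5, 175 and 243 CPM and ID1 at 292, 528, 517 and 425. It did not hold for ID2, at 46.7 CPM in NC, 66.6 in R, 61.2 in weakly and 48.7 in strongly tagged cells. For the metallothioneins R stood apart. MT2A was at 5509 CPM in NC, 5670.4 in weakly and 5784 in strongly tagged cells but 2792 in R, and MT1X at 274, 298, 294 and 132. MT1E was also lowest in R, at 2038 CPM in NC, 1846 in weakly and 1532 in strongly tagged cells and 879.8 in R. Unlike the other 2 it was lower in strongly tagged cells than in NC, with a ratio of 0.752 (0.737 to 0.767). RNF43 was highest in R, at 49.9 CPM, against 26.2 in NC, 30.6 in weakly and 19.3 in strongly tagged cells, and so was NR4A1, at 18.6 against 6.39, 7.14 and 5.78. SLC39A10 was at 136 CPM in R and between 82.7 and 90.04 in the other 3. For p53 targets and cycling genes the strongly tagged cells stood apart, with CDKN1A at 904 CPM against 180.2 in NC, 255 in R and 263 in weakly tagged cells, and MKI67 at 130.1 against 334, 317 and 289.

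**Figure D4:**
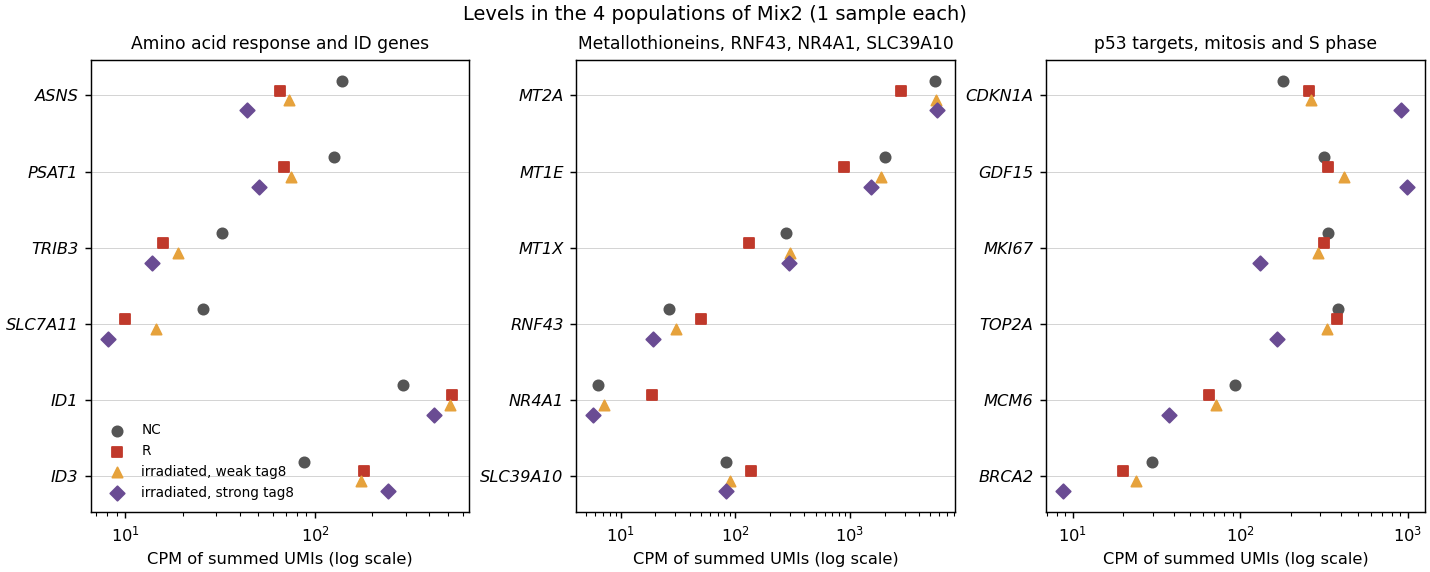
CPM of summed UMIs (x axis, log scale) of 18 genes in NC, R and weakly and strongly tagged irradiated cells, 1 sample each. NC lies to the right of the rest for ASNS, PSAT1, TRIB3 and SLC7A11 and to the left for ID1 and ID3, R lies apart for the metallothioneins, RNF43, NR4A1 and SLC39A10, and the strongly tagged cells lie apart for CDKN1A, GDF15 and MKI67.

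The chromosome medians lay close together, with chromosome 20 the lowest. The median log2 ratio of R over NC of the genes tested on each of the 23 nuclear chromosomes with such genes lay between −0.08 (chromosome 20) and −0.01 (chromosome 19), around the median of −0.04 over all genes. On chromosome 20, 39.7% of 204 genes lay above the median of all genes. Past the call 1 of them was higher and 7 were lower, against 1.42% and 1.77% of all genes tested. On chromosome 19 the share was 56.4% of 505 genes. Among genes at 50 CPM or more chromosome 20 was again the lowest, at −0.08. Over 140 blocks of 50 neighbouring tested genes the median ran from −0.13 to 0.04. The block with the lowest value lay on chromosome 22 between XBP1 and GCAT. The next lowest, at −0.12, lay on chromosome 16 between N4BP1 and PLEKHG4 and holds the metallothionein genes, and the median of that chromosome was −0.06. These are RNA levels and not a measure of copy number, and a gain or loss carried by a minor share of the cells would not be seen in them.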

How the data were processed

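Mix2 was a single 10x Genomics library of HCT116 cells with antibody hashtags. The deposited matrices hold counts, whole numbers of UMIs per gene and cell, which the authors made with Cell Ranger (3.1.0 for Mix1 and 3.0.1 for Mix2, per the file headers). GRCh38 and mm10 are both named in the submitters' processing notes, and the 33538 genes of the file are human. The feature and barcode files name the rows and columns. R and NC were told apart by tag counts as stated above, with no doublet caller, so a doublet of 2 cells with the same tag stays. A doublet of an R or NC cell with a weakly tagged irradiated cell can also stay, where tag7 or tag6 still reaches the share limit. How many doublets of either kind remain was not tested. Mix1 and Mix2 shared 59 barcodes. UMIs were summed per population and divided by the total to give CPM, and ratios were given exact conditional binomial (Clopper-Pearson) intervals. A gene was called at 1.5-fold or more with an interval excluding equality, at 10 CPM or more in either population. Spread was measured after thinning each cell to 4000 UMIs. Scripts used Python 3.11.15, scipy 1.17.1 and edgeR 4.0.16 for TMM scaling, and were tested on simulated data. Gene positions came from GENCODE 44 and start-site sequence from RefSeq. Named genes were the 4 genes ID3, RNF43, MT2A and ASNS, the 12 highest and 12 lowest ratios at 50 CPM or more, the 6 highest and 6 lowest at 10 to 50 CPM, up to 6 members of each of 30 lists farthest from equality, 14 fixed genes, and the 6 highest and 6 lowest Fano ratios, and other list members are named by role, some of them chosen after their values were seen. The comparison, its members and the lists were chosen with earlier results of these data known. A few of the genes so chosen are not reported here.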

Additional observations from a re-analysis of the deposited data

How the results depend on the processing

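No paired analysis was possible because each population is 1 sample of 1 library. Of the 56 named genes past the fold, 35 kept the call in all 10 alternatives that keep most cells. The other 21, whose call ended in at least 1 of them, were ANKRD37, BRCA2, BST2, CENPV, CLDN4, COL12A1, DUSP1, GARS, GCLC, HMGCS1, HSH2D, IFI35, NEAT1, ORC1, PALB2, SCD, SLC16A14, SLC7A1, SPRED2, STC2 and YARS. In these settings 15 of the 21 fell short of 1.5-fold. The other 6 (ANKRD37, BST2, HSH2D, PALB2, SLC16A14 and SPRED2) kept the fold and lost the call by the 10 CPM limit or the interval, with BST2 at 2.42 to 8.93, HSH2D at 1.99 to 3.13 and ANKRD37 at 1.86 to 2.11. The other 3 alternatives keep few cells and move most. With the 95% tag share (44 R and 88 NC cells) 315 genes were lower, and the ratios were 2.49 for ID3, 1.22 for RNF43, 0.492 for MT2A, 0.302 for ASNS and 0.709 for NR4A1, and the Cholesterol synthesis median was 0.0091. With a mitochondrial limit of 5% (31 R and 172 NC cells) 211 genes were higher, ID3 was at 2.89, MT2A 0.550, PCK2 1.16, TRIB3 1.04, ANKRD37 0.723 and NDRG1 0.890, and the log2 medians were 0.57 for p53 targets, −0.62 for S phase and 0.11 for end joining. In cells with no UMI of MKI67, TOP2A, CCNB1 or CENPF (34 R and 20 NC cells) ID3 was at 2.89, RNF43 1.35, MT2A 0.448, ASNS 0.371, CRIP1 0.882, ELF3 0.867, KIAA0040 0.770, UBE2L6 0.963 and GCLC 1.73, with list medians of 0.21 (Wnt), −0.89 (metallothioneins and zinc), −0.24 (ATF4), 0.66 (p53) and −1.15 (S phase). The cause of these moves was not tested. Thinned to 4000 UMIs MT2A was at 0.494, and 0.491 after subtraction of 5% cell-free RNA. A total without mitochondrial, ribosomal protein and metallothionein genes, which lifts all CPM, gave 193 higher and 147 lower against 107 and 133. A minimum of 50 CPM gave 12 and 15, one of 2 CPM 257 and 225, 2-fold 15 and 10, a fold limit nearer to equality 319 and 479, and the stricter interval 47 and 36. Thinned to 2500 UMIs, 3 genes had a Fano ratio above 1.5 and 3 one below 1 in 1.5. Without the highest cell these were 2 and 2, and without cells of 5 or more CDKN1A UMIs, a cut on the same counts, the CDKN1A Fano ratio was 0.926. The alternatives with a tag8 limit, the stricter interval, the highest cell left out and the CDKN1A cut were chosen after seeing the data. Over the named genes past the fold, 598 of 711 ratios under an alternative lay within the counting interval of the reported one, 103 left it and 10 changed direction. Another 17 of them could not be computed because a population had 0 UMIs.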
